A study of Mus musculus with 2 samples.

Results

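Cytochrome P450 genes were examined in mouse liver RNA measured on 2 single-colour Affymetrix arrays. A gene was taken as a member when a probe set of the array was assigned by the platform annotation to that gene alone and the symbol was Cyp followed by a digit. Cyp7a1, Cyp7b1, Cyp8b1, Cyp27a1 and Cyp51, enzymes of bile acid and cholesterol synthesis, were left out by this rule. This gave 36 genes read by 42 probe sets, of 8251 named genes and 12488 probe sets in all. Both samples were titled liver and described as the same commercial total RNA, while their source field named spleen; the titles were used. The labels gave no strain, sex, age, treatment or number of animals for either sample. No label said that the 2 samples came from separate animals, so the spread between them may be purely technical. The labels gave 1 group and no contrast, so no test between groups was possible and no p-value is given.

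Cytochrome P450 enzymes are haem proteins that insert an oxygen atom into their substrates. Most members of the families Cyp1 to Cyp4 sit in the endoplasmic reticulum, take electrons from P450 reductase and oxidise drugs, toxins, fatty acids and steroids, and the liver is their main site. The steroidogenic members build steroid hormones in adrenal gland and gonads, and others make or break down vitamin D and retinoic acid. Several are known as induced genes, switched on through the Ah receptor (Cyp1), the receptors CAR and PXR (Cyp2b and Cyp3a) or PPAR-alpha (Cyp4a).

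To show what lies in front of genes that were and were not above background, the 250 bases before the annotated start are printed for 5 members. The sequences are from RefSeq, build GRCm38.p6, and read 5′ to 3′ on the strand of the gene. Capitals mark the letters TATAAA, as found in TATA boxes, and CAAAGTCCA, a form of the HNF4 motif. Cyp2e1 was the member with the highest signal on both arrays. Cyp1a2 and Cyp1a1 are neighbours in the genome, Cyp3a11 and Cyp3a16 belong to one subfamily, and in each of these pairs the first gene was above background and the second was not in the sets that name it alone. A further set, which names Cyp3a16 together with Cyp3a11, was above background at 26493 and 29828, and its signal cannot be assigned to either gene.
Cyp2e1, chr7:140763569-140763818, plus strand: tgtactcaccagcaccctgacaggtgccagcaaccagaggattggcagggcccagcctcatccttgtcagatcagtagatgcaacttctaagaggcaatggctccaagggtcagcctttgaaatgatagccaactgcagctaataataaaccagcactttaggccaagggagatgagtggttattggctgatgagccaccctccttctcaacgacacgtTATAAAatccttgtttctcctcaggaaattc
Cyp1a2, chr9:57683656-57683905, minus strand: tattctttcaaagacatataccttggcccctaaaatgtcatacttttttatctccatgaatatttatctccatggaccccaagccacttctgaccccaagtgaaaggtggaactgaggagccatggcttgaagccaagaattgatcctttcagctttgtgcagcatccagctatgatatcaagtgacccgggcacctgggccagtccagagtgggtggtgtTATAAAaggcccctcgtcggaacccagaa
Cyp1a1, chr9:57697363-57697612, plus strand: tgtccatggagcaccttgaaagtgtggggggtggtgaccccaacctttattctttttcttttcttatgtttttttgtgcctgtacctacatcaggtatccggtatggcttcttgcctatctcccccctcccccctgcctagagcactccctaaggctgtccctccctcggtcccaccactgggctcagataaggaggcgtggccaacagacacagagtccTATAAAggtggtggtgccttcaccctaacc
Cyp3a11, chr5:145879855-145880104, minus strand: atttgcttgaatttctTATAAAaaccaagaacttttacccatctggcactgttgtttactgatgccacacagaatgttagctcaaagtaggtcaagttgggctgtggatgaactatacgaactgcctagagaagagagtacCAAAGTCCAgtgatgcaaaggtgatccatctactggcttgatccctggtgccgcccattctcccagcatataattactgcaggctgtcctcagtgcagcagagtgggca
Cyp3a16, chr5:145469724-145469973, minus strand: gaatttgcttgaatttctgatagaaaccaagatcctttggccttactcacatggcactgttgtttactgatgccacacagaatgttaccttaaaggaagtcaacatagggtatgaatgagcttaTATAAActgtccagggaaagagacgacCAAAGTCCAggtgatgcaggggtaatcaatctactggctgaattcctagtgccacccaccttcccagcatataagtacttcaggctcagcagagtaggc
The letters TATAAA lay close to the start in 3 of these, beginning 31 bases before it in Cyp2e1, 29 in Cyp1a2 and 30 in Cyp1a1. They lay further away in Cyp3a11, beginning 234 bases before the start, and in Cyp3a16, 126 bases before it. Only the exact letters TATAAA were searched and marked. Nearer the start, the window of Cyp3a11 also holds the unmarked letters TATAAT and that of Cyp3a16 holds TATAAG. The match furthest from the start is therefore not shown to be the TATA box of either gene. The HNF4 letters began 109 bases before the start of Cyp3a11 and 99 before that of Cyp3a16. In a global alignment the windows of Cyp3a11 and Cyp3a16 were identical at 199 of 261 columns (76.2%), and those of Cyp1a2 and Cyp1a1 at 119 of 270 (44.1%).

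Promoter windows were on hand for 30 of the 36 genes, 19 of them above background. Without a window were Cyp17a1, Cyp21a1, Cyp24a1, Cyp4a10, Cyp4a12b and Cyp4a14, so no Cyp4a member was searched for any motif. TATAAA was found at any place in the window, on either strand, in 13 of the 30, against 14.3% of 27025 genes with such a window. Of the 13, 10 were among the 19 genes above background and 3 among the 11 that were not. CAAAGTCCA was found in Cyp2c70, Cyp3a11 and Cyp3a16, against 0.451% of genes. Also searched on both strands were the HNF1 consensus (GTTAAT and ATTAAC with 1 base between them), a direct repeat of AGGTCA with 1 base between (a site type of HNF4 and PPAR-alpha) and TNGCGTG (the core of the element bound by the Ah receptor). None of these 3 was found in a window of the 30 genes, and they were in 0.0111%, 0.0407% and 4.76% of genes. The TATAAA and CAAAGTCCA matches printed above do not overlap each other. A match is a description of letters, not evidence of binding.

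Background was set from 124 genes typical of brain, retina, testis and striated muscle. The 95th percentile of their signals, 381.8 on replicate 1 and 383.9 on replicate 2, served as the threshold. The probe set brightest on average stood for each gene. Of 36 P450 genes 24 (66.7%) were above the threshold on both arrays, against 34.3% of all 8251 named genes. The same 24 genes passed on each array alone, and the other 12 passed on neither. A gene's percentile is its place in the order of signal of all named genes on an array. The median percentile of the P450 genes was 85.6 on replicate 1 and 85.5 on replicate 2. In the top 5% of genes on both arrays were 16 of the 36 (4.85% of all genes), and in the top 1% were 5 (0.982% of all genes), namely Cyp2e1, Cyp2d10, Cyp3a11, Cyp2d26 and Cyp1a2. Probe brightness depends on probe sequence, so a higher signal of one gene than of another does not show more transcript. In bulk RNA, fewer cells of a type and less RNA per cell cannot be told apart.

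**Figure D1:**
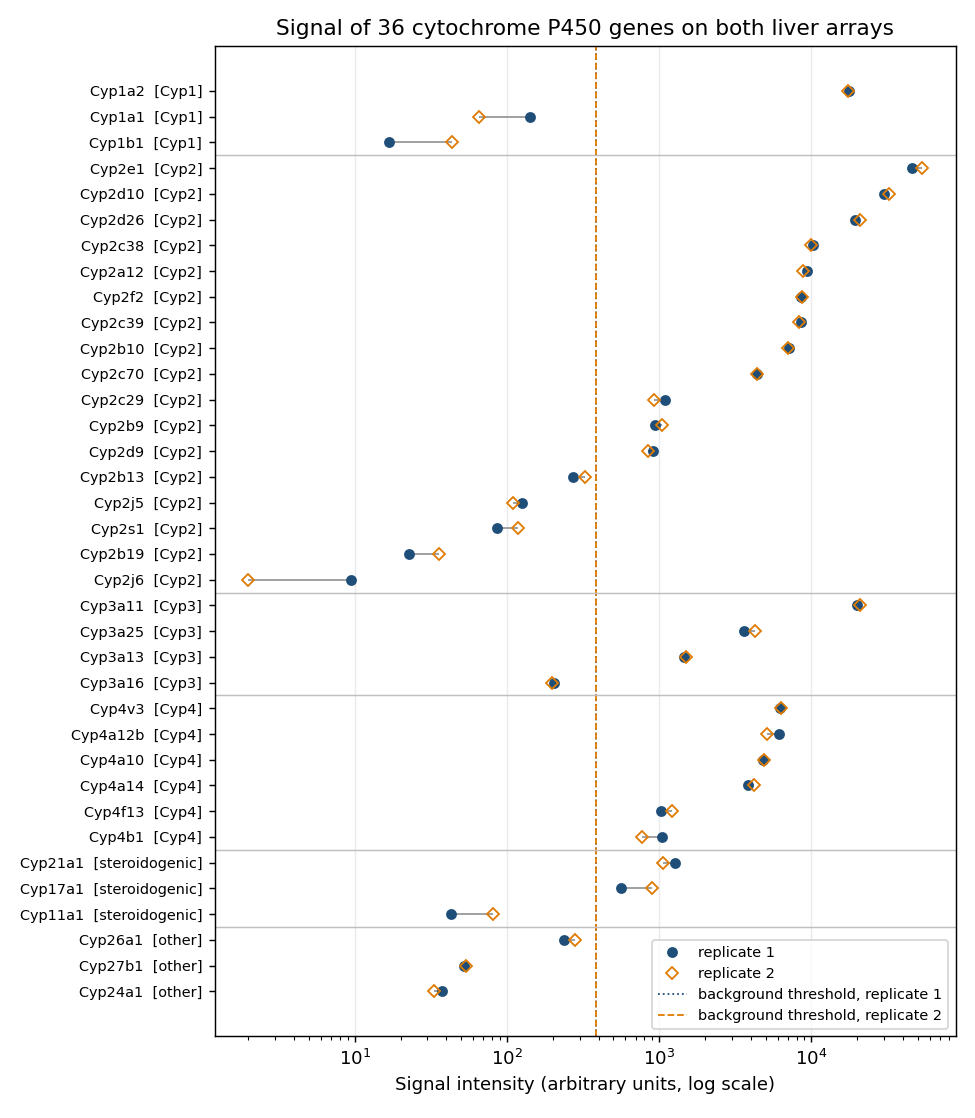
Signal intensity (log scale) of the 36 P450 genes on both arrays, by family and within a family by mean signal, with filled circles for replicate 1, open diamonds for replicate 2 and vertical lines at the background thresholds of 381.8 and 383.9. The 24 genes right of the lines have both symbols within 2-fold of each other, and all 6 Cyp4 genes are among them, whereas the 3 genes of the group "other" lie left of the lines.

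Markers were set beside these values because the labels disagree. All 8 hepatocyte markers were above background on both arrays, including Alb, albumin, at 64627 on replicate 1 and 65800 on replicate 2. None of 8 lymphocyte markers was above it on both arrays. Cd79a, a B cell receptor chain, came closest, with 450.3 on replicate 1 and 333.4 on replicate 2. Above background were 2 of 4 Kupffer cell markers, 0 of 2 bile duct markers and 2 of 3 red cell precursor markers. The share over all named genes was 34.3%. Of the red cell markers, Hba-a1 gave 24075 and 24908 and Alas2 gave 2164 and 1730, while Epb42 was not above background. No marker of pancreas was on these lists. Digestive genes known from pancreas were above background, such as Cela1 at 4794 and 5091 and Cel at 4192 and 3867. Clps gave 3701 and 3051, and Cela2a gave 692.7 and 927.2. These genes were picked afterwards and not from a fixed list. The part of RNA from other cell types or tissues in these samples was not tested. The median signal of all probe sets was 163.2 and 157.7, and the 2% trimmed mean was 500.5 on either array. Only 16 of 12488 values were identical between the arrays.

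The families Cyp1 to Cyp4 held 30 of the genes, and 22 of these (73.3%) were above background. Their median percentile was 95.2 on replicate 1 and 95.6 on replicate 2. The steroidogenic and other P450 genes numbered 6, of which 2 (33.3%) were above background, close to the 34.3% of all genes. Their median percentile was 35.3 and 42.2. Probe sets differ between the 2 sets of genes, so their percentiles are set side by side without a test.

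In the Cyp1 family, which oxidises planar aromatic compounds, 1 of 3 genes was above background, close to the 34.3% of all named genes. Cyp1a2, an enzyme of caffeine and arylamine oxidation made constitutively by hepatocytes around the central vein, gave 17731 on replicate 1 and 17308 on replicate 2, or 17520 ± 299.0 (SD, n = 2 arrays). Cyp1a1, a related enzyme that is strongly induced through the Ah receptor, gave 142.6 and 65.3 in one probe set and 65.3 and 75.7 in the other. Neither set was above background on either array. Cyp1b1, which oxidises oestrogens and is known mostly outside the liver, gave 16.8 and 43.7 in its brighter set and 3.5 and 4.9 in its other set.

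The Cyp2 family was the largest, with 12 of 17 genes above background, against 34.3% of all named genes. Its medians were at percentile 96.0 (replicate 1) and 95.9 (replicate 2). Cyp2e1, which oxidises ethanol and acetaminophen, gave 46149 and 53252, or 49701 ± 5023 (SD, n = 2), at percentile 99.9 on both arrays. All 3 Cyp2d genes, from the cluster that corresponds to the human debrisoquine hydroxylase gene, were above background. Cyp2d10 gave 30238 and 32323 in a probe set of suffix s and 11598 and 12396 in a plain one. Suffixes s and f mark probe sets whose probes match several transcripts or a gene family, and r marks sets for which probe selection rules were dropped. Cyp2d26 gave 19226 and 20852. Cyp2d9, a male-biased testosterone hydroxylase, gave 913.5 and 842.6 in the set that names it alone.

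All 4 Cyp2c genes were above background, against 34.3% of all named genes. Cyp2c38 and Cyp2c29 are epoxygenases of arachidonic acid, Cyp2c39 hydroxylates retinoic acid, and Cyp2c70 makes muricholic bile acids of rodents. Cyp2c38 gave 10223 and 9914 in a set of suffix f, and Cyp2c39 gave 8620 and 8240. Cyp2c70 gave 4378 and 4421, an SD of 0.693% of the mean. Cyp2c29 gave 1085 and 927.1, at percentiles 84.5 and 82.7. The genes of this cluster are near-identical in part, and the signal of a set may include its neighbours.

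Of the Cyp2a, Cyp2b, Cyp2f and Cyp2s genes, which share a cluster, 4 of 7 were above background, against 34.3% of all named genes. Cyp2a12, which hydroxylates bile acids, gave 9330 and 8798. Cyp2f2, an enzyme of naphthalene oxidation known from lung club cells and periportal hepatocytes, gave 8580 and 8746. Cyp2b10, the gene induced by phenobarbital through CAR, gave 7092 and 6998, or 7045 ± 66.1 (SD, n = 2). The female-biased Cyp2b9 was also above background, at 944.6 and 1040, with the arrays 1.10-fold apart. Cyp2b13, likewise female-biased, gave 271.8 and 324.2 and was the member closest below the threshold. The skin enzyme Cyp2b19 gave 22.8 and 35.5, and Cyp2s1, an enzyme of epithelia, 86.6 and 118.1.

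Neither Cyp2j gene was above background. Cyp2j5, an epoxygenase known from kidney and liver, gave 126.3 and 109.8, at percentiles 35.8 and 33.9 from a single probe set. Cyp2j6, an enzyme of the intestine, gave 9.5 on replicate 1 and 2.0 on replicate 2, both far below the threshold.

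In the Cyp3 family, whose members oxidise a wide range of drugs and steroids, 3 of 4 genes were above background. Cyp3a11, the main PXR-induced Cyp3a of adult mouse liver, gave 19869 and 21021, or 20445 ± 814.5 (SD, n = 2). Cyp3a25 gave 3610 and 4285, and Cyp3a13, also made in intestine, gave 1457 and 1510. Cyp3a16, known from fetal and young liver, gave 204.9 and 197.7 in a set of suffix r, the only one that names it alone, and was not above background there. The Cyp2b and Cyp3a subfamilies, to which Cyp2b10 and Cyp3a11 belong, together had 5 of 8 genes above background, against 34.3% of all named genes.

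All 6 Cyp4 genes, mostly hydroxylases of the end of fatty acid chains, were above background, against 34.3% of all named genes. Their signals ran from 1025 to 6265 on replicate 1 and from 776.7 to 6323 on replicate 2. Cyp4a10 and Cyp4a14 are classic PPAR-alpha targets. Cyp4a10 gave 4784 and 4903 in a set of suffix f, and Cyp4a14 gave 3864 and 4193 in a plain one. Cyp4a12b, of a male-biased pair that makes a vasoactive arachidonic acid product, gave 6088 and 5147. Cyp4v3, a fatty acid hydroxylase, was the member with the closest agreement, at 6265 and 6323 (SD 0.651% of the mean). Cyp4f13, of the subfamily that inactivates leukotrienes, gave 1025 and 1216 in one set and 420.3 and 395.9 in the other, both above background. Cyp4b1, best known from lung, gave 1037 and 776.7 in a set of suffix f.

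Of the 3 steroidogenic genes 2 were above background, against 34.3% of all named genes. Cyp21a1, the steroid hydroxylase of corticosterone synthesis, gave 1272 and 1059 in a set of suffix s, and the mouse genome holds a near-identical pseudogene of it. Cyp17a1, the hydroxylase and lyase of androgen synthesis, gave 559.7 and 897.4, or 728.6 ± 238.8 (SD, n = 2). Its other probe set, of suffix f, gave 10.7 and 9.2 and was not above background on either array, so its call rests on 1 set. Cyp11a1, which cleaves the cholesterol side chain at the start of steroid synthesis, gave 43.0 and 80.6. Of 6 markers of steroidogenic glands 2 (33.3%) were above background, close to the share of all named genes. These were Fdx1, which hepatocytes also use, and Nr5a1, a gland transcription factor. Nr5a1 gave 1695 and 1529 in its brightest set, and none of its other 4 sets was above background. The cholesterol transporter Star, at 252.0 and 221.1, and Hsd3b1, Inha and Mc2r were not, with signals from 29.8 to 129.4 for the last 3. The part of gland RNA in the Cyp21a1 and Cyp17a1 signals was not tested.

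None of the 3 other genes was above background. Cyp26a1, which breaks down retinoic acid, gave 235.9 and 281.2. The kidney enzyme Cyp27b1, which activates vitamin D, gave 52.5 and 53.9. Cyp24a1, which inactivates vitamin D, gave 37.6 and 32.9 in a set of suffix r and 44.1 and 5.7 in a plain one. Over all 12 members not above background, signals ran from 9.5 to 271.8 on replicate 1 and from 2.0 to 324.2 on replicate 2. Such a gene is not shown to be absent.

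Members on lists of genes with known sex bias were set side by side. Of 4 listed male-biased genes 2 were members here, and of 11 listed female-biased genes 5 were. Both male-biased members, Cyp2d9 and Cyp4a12b, were above background. Of 5 female-biased members 3 were, Cyp2b10, Cyp2b9 and Cyp17a1, and Cyp2b13 and Cyp3a16 were not. Of all named genes 34.3% were above background. The sex of the animals was not given in the sources used here.

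**Figure D2:**
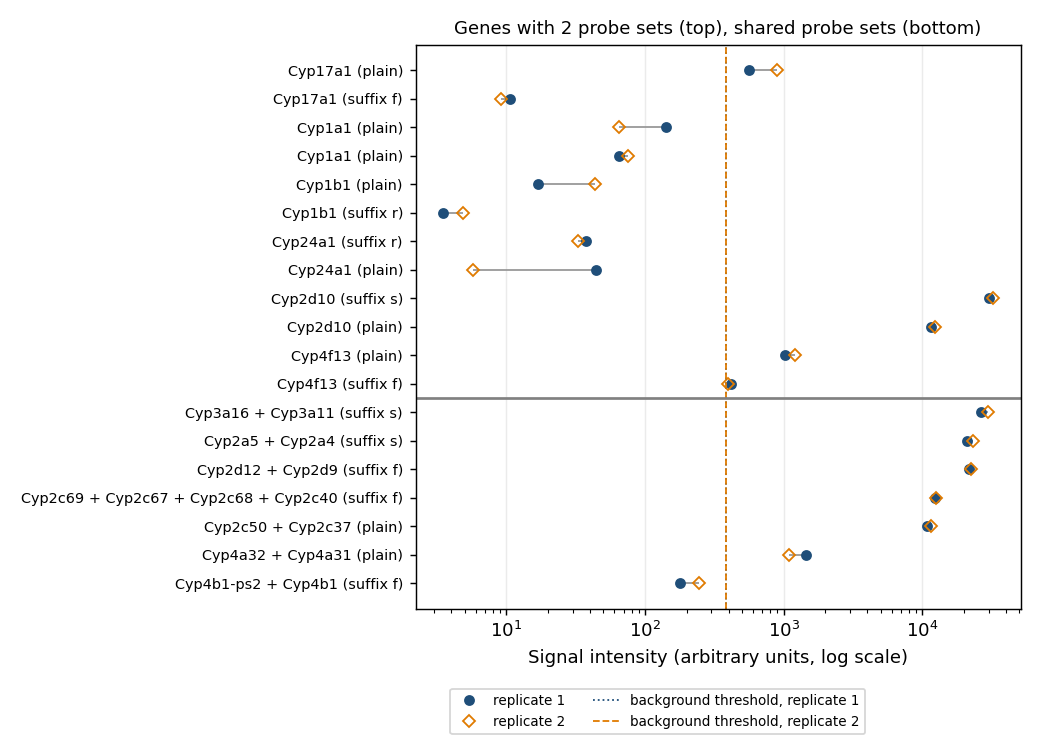
Signal intensity (log scale) of each probe set of the 6 member genes with 2 probe sets (above the grey line) and of the 7 probe sets that name several genes including a P450 gene (below it), with filled circles for replicate 1, open diamonds for replicate 2 and vertical lines at the background thresholds. The 2 sets of Cyp17a1 lie on either side of the thresholds, those of Cyp2d10 and of Cyp4f13 both lie right of them, and 6 of the 7 shared sets lie right of them.

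Of the 36 genes 6 had 2 probe sets and 30 had 1. The sets of a gene fell on the same side of the threshold in 5 of the 6, the exception being Cyp17a1. Both sets were above background for Cyp2d10 and Cyp4f13, and neither was for Cyp1a1, Cyp1b1 and Cyp24a1. A set of suffix s, f or r gave the value of 7 genes, of which 5 were above background.

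The array covered part of the superfamily. RefSeq lists 94 protein-coding genes that fit the symbol rule, of which 36 were named alone by a probe set, 11 only together with other genes and 47 by no probe set of the annotation table used here. Coverage was complete for Cyp1 (3 of 3), and 17 of 48 Cyp2, 4 of 9 Cyp3 and 6 of 20 Cyp4 genes were named alone. Among protein-coding genes, 27 of the 36 members lie directly next to another P450 gene, for example Cyp2b10 between Cyp2s1 and Cyp2b13. Of these 27, 19 were above background. Of the 9 with no P450 gene at their side 5 were, namely Cyp17a1, Cyp21a1, Cyp2e1, Cyp3a13 and Cyp4v3. The share over all named genes was 34.3%, and these counts were not tested against each other. Genes side by side did not always share a call. Cyp2b13 lies between Cyp2b10 and Cyp2b9, and both of these were above background while Cyp2b13 was not.

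**Figure D3:**
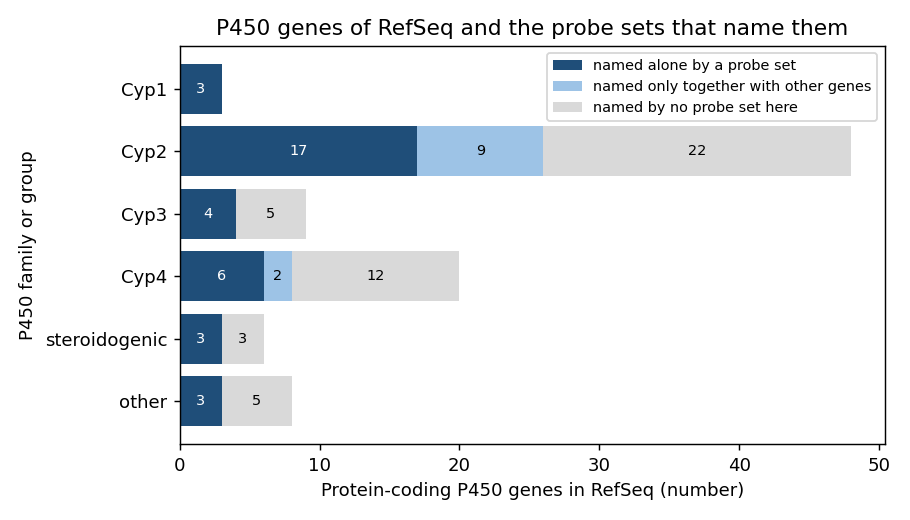
Number of protein-coding P450 genes in RefSeq (build GRCm38.p6, without the 5 genes left out by the rule) by family, split by whether a probe set names the gene alone, only with other genes, or not in the table used here. The Cyp2 bar is the longest, with 17, 9 and 22 genes in the 3 parts.

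The 2 arrays gave close values for the P450 genes above background. The SD was at most 32.8% of the mean, in Cyp17a1, with a median of 5.21% over the 24 genes, against 6.33% over all 2832 genes above background. After the median difference of those genes, a log2 of 0.01, was subtracted, the log2 differences of the 24 genes had an SD of 0.22 across genes, beside 0.22 over the 2832 genes. None of the 24 differed by over 2-fold, and 6 of the 2832 did (0.212%). As deposited, 14 of the 24 were higher on replicate 2, against 52.0% of the 2832 genes. The log2 difference, replicate 2 minus replicate 1, ran from -0.42 in Cyp4b1 to 0.68 in Cyp17a1. Among genes with a signal above 1000 on both arrays, the median absolute log2 difference was 0.07 for 19 P450 genes and 0.10 for all 1275 genes. Of the 12 P450 genes not above background, 3 differed by over 2-fold, Cyp2j6, Cyp1b1 and Cyp1a1, against 21.3% of all 5419 genes not above background. Each side of these differences is a single array, so none has a replicate check.

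**Figure D4:**
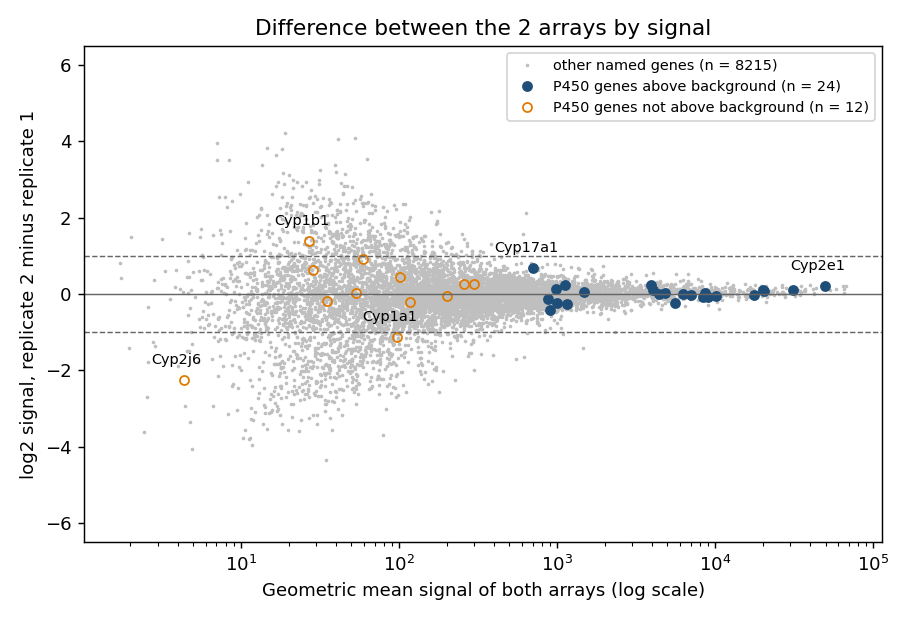
Difference in log2 signal between replicate 2 and replicate 1 (vertical axis) against the geometric mean signal of both arrays (horizontal axis, log scale), with grey points for 8215 other named genes, filled circles for the 24 P450 genes above background and open circles for the 12 that were not. Dashed lines mark 2-fold differences, and the filled circles lie between them, from -0.42 to 0.68.

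The genes that serve P450 enzymes were examined from a separate list. Of 7 listed electron carriers and binding partners 5 were measured, and all 5 were above background, against 34.3% of all named genes. Cyb5a, cytochrome b5, gave 16375 and 17544, and its reductase Cyb5r3 gave 3978 and 3866. Fdx1, the ferredoxin that feeds mitochondrial P450 enzymes, gave 8404 and 10152 in one set and 19.4 and 13.2 in another, of suffix i. Pgrmc1, a membrane haem protein that binds P450 enzymes, gave 12550 and 12198. Cyb5b, the mitochondrial cytochrome b5, gave 1749 and 1746 in one set and 490.1 and 527.2 in another. Por, the reductase that serves the microsomal P450 enzymes, and Fdxr were not analysed here.

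The haem synthesis and epoxide hydrolase genes of the list were also above background, 4 of 4, against 34.3% of all named genes. Alas1, the rate-limiting enzyme of haem synthesis, gave 22285 and 24056, and Alad, the next enzyme, 8472 and 9329. The epoxide hydrolases Ephx1 and Ephx2, which open the epoxides that P450 enzymes form, gave 4387 and 4458, and 4954 and 4950.

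Of 10 measured regulators of P450 genes 8 were above background, against 34.3% of all named genes. Nr1i3, the receptor CAR, gave 3765 and 4402, and all 3 of its probe sets were above background. Nr1i2, the receptor PXR, gave 464.0 and 542.3. Ppara gave 1601 and 1211. Rxra, the partner of these receptors, gave 875.4 and 1209 in one set and 785.9 and 765.2 in another. The liver transcription factors Cebpa (9564 and 10542), Cebpb (5489 and 5971) and Hnf4a (1454 and 1602) and the repressor Nr0b2 (1309 and 1033) were above background on both arrays. Ahr, the receptor behind Cyp1 induction, at 259.7 and 274.0, and its partner Arnt, at 306.3 and 300.8, were not. The other set of Arnt gave 73.6 and 90.8.

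**Figure D5:**
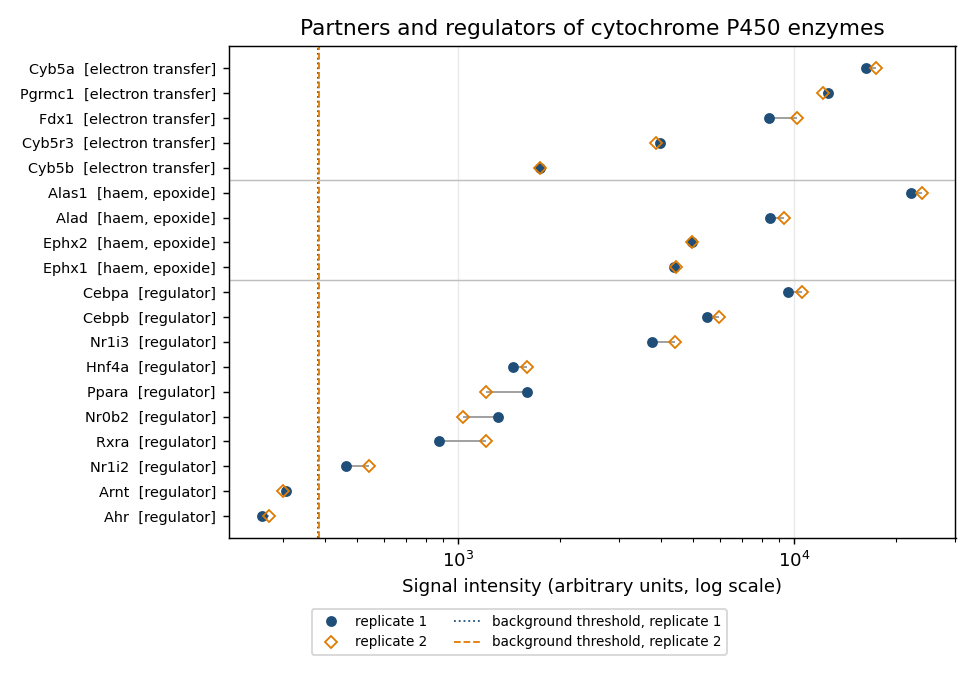
Signal intensity (log scale) of 19 genes that serve or regulate P450 enzymes on both arrays, by group and mean signal, with filled circles for replicate 1, open diamonds for replicate 2 and vertical lines at the background thresholds. Arnt and Ahr lie left of the lines and the other 17 genes right of them.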

How the data were processed

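The deposited table holds linear signal intensity from single-colour arrays, with 1 value for each probe set in each of 2 samples of total RNA. How the authors summarised, background-corrected and scaled the arrays is not given in the sources used here. The equal trimmed means are what scaling to a common target would give, and background handling changes low signals most. Both columns of the table were used.

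The platform annotation named 1 gene for 10855 probe sets, several for 396 and none for 1237, and the 66 array control sets were left out. All 36 member gene identifiers were found in RefSeq (GRCm38.p6) and 0 symbols changed. A gene was read from its probe set that was brightest on average (mean of log2 signals). Differences were log2 of replicate 2 over replicate 1, less their median over genes above background. Promoter windows were aligned globally (match 2, mismatch -1, gap opening -5, extension -1). Alternatives were quantile normalization, the mean of a gene's sets, no suffixed sets, other background percentiles (90th and 99th), each array alone, no shift, no filter on dim genes and log2(value + 32). The rule for named genes was to name every member at least once with its values, with probe sets that differ by over 4-fold and members past 2-fold given in full. The members and lists were chosen with earlier results of these data known. The steps were tested on simulated data. With 2 arrays, their number limits the precision. Software was Python 3.11.15 with Biopython 1.88, pandas 2.3.3, numpy 2.4.6 and matplotlib 3.10.9.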

Additional observations from a re-analysis of the deposited data

Results flagged for a closer look

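Probe sets that name several genes stayed out of the P450 values above, and 6 of the 7 that include a P450 gene had signal above background on both arrays. The set for Cyp3a16 and Cyp3a11 gave 26493 and 29828 (mean 28160) on replicates 1 and 2, and the set for Cyp2a5 and Cyp2a4, coumarin and testosterone hydroxylases, gave 21148 and 23067 (mean 22107). The set for Cyp2d12 and Cyp2d9 gave 21586 and 22601 (mean 22094), beside 913.5 and 842.6 in the set that names Cyp2d9 alone. The set for Cyp2c69, Cyp2c67, Cyp2c68 and Cyp2c40 gave 12238 and 12611 (mean 12424), that for Cyp2c50 and Cyp2c37 gave 10731 and 11587 (mean 11159), and that for Cyp4a32 and Cyp4a31 gave 1445 and 1084 (mean 1264). The set for Cyp4b1 and Cyp4b1-ps2, at 179.1 and 243.2, was not above background, whereas the set that names Cyp4b1 alone was. The signal of a shared set cannot be assigned to 1 of its genes.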

How the results depend on the processing

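The count of 24 P450 genes above background was 20 to 24 under every alternative run. Cyp17a1 was no longer above it when the probe sets of a gene were averaged, Cyp17a1 and Cyp2d9 were not with the 99th percentile as threshold, and Cyp21a1, Cyp2c38, Cyp4a10 and Cyp4b1 had no set left without the suffixed probe sets. The count for steroidogenic and other P450 genes, 2 of 6, fell to 1 of 6 with averaged sets, 1 of 5 without the suffixed sets and 1 of 6 with the 99th percentile. The median percentile of the members was 88.1 with averaged sets and 86.7 without the suffixed sets, and 85.5 without replicate 1 and 85.6 without replicate 2. The percentile of Cyp17a1 fell from 77.1 to 33.0 with the mean of its sets. Without the filter on dim genes 3 of 36 members differed by over 2-fold between the arrays, against 14.1% of all 8251 genes. The median log2 difference of the members, 0.01, lay between -0.01 (quantile normalization) and 0.05 (all genes), so its sign is not settled. It has no value with 1 array left out. No paired analysis was possible because the samples form 1 group. Signal near or below background limits the 12 dimmer members.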
